A study of Mus musculus with 16 samples.

Results

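The antioxidant and glutathione genes are 40 genes that remove superoxide and peroxides, make and recycle glutathione, join it to reactive compounds, or control these enzymes. They were chosen by function, with earlier results of these data known, and matched by gene symbol. Each was read from its brightest probe set, by the mean of 16 arrays. Of the 40, 36 had a probe set named for that gene alone, among 18193 genes in all. Prdx1, whose 5 probe sets are all shared with other genes, and Prdx5, Prdx6 and G6pdx are not analysed here. The arrays held RNA of whole lung and whole cerebellum from C57BL/6J mice at postnatal day 7. The 4 groups were dexamethasone lung, vehicle lung, dexamethasone cerebellum and vehicle cerebellum, with 4 biological replicates each. Dexamethasone is a synthetic glucocorticoid that acts through the glucocorticoid receptor, and vehicle is the carrier without the drug. The series title calls the treatment chronic. The sources used here do not give its dose or schedule, the sex of the mice or their litters. No group is labelled with a transgene or a deletion.

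Superoxide dismutases turn superoxide into hydrogen peroxide, which catalase, the glutathione peroxidases and the peroxiredoxins then remove. Glutathione, the main small thiol of the cell, is oxidised by the peroxidases, returned to its reduced form by glutathione reductase at the cost of NADPH, and attached to electrophiles by the glutathione S-transferases. The transcription factor Nrf2, encoded by Nfe2l2, binds antioxidant response elements in many of these genes, and Keap1 directs its breakdown. In rats the antioxidant enzymes of the lung increase before birth, and dexamethasone given to the mother is known to bring that increase forward.

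All values are log2 expression values as deposited, so a difference of 1 is a 2-fold difference, and a level of a probe set is not comparable with that of another. Markers of each organ were high under its own label. Summed levels (the log2 of the summed linear values) of 5 lung epithelial markers (Sftpc, Sftpb, Scgb1a1, Ager and Nkx2-1) ran from 15.98 to 16.34 in the lungs and from 7.80 to 8.28 in the cerebella. Summed levels of 5 cerebellar neuron markers (Zic1, Calb1, Neurod1, Pcp2 and Cbln1) ran from 7.01 to 7.42 in the lungs and from 15.00 to 15.48 in the cerebella. Array B46 stood apart among the dexamethasone lungs, with a mean correlation of 0.9809 to its group, and it was the highest or lowest of the 4 for 72.2% of the members and 65.9% of all genes. B39 in the dexamethasone cerebella and B79 in the vehicle cerebella were the highest or lowest of their groups for 72.2% of the members each, against 70.2% and 60.7% of all genes. The Gapdh control probe sets, whose 3′ minus 5′ difference rises as RNA degrades, differed by 0.446 to 0.708 in dexamethasone lungs and by 0.840 to 1.044 in vehicle lungs. These ranges did not overlap, so treatment and this measure of RNA quality cannot be told apart in the lung. The same difference for the actin control probe sets, 0.451 to 0.642 and 0.611 to 0.667, overlapped. Among the vehicle cerebella B81 was set apart on both controls. Its Gapdh difference was 0.518, against 0.044 to 0.159 in the others, and its actin difference 0.942, against 0.524 to 0.694. Without replicate B46, 22 of the 24 lung calls below remained.

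Dexamethasone lungs carried more RNA of most of these genes. In the lung 21 of the 36 measured members rose with dexamethasone, 3 fell and 12 did not pass the test (limma adjusted p under 0.05 over all genes). Of the members 58.3% were thus higher and 8.33% lower, whereas among all genes 31.2% passed in either direction, 15.7% higher and 15.5% lower. All genes include dim ones, whereas 35 of the 36 members lay above the median level of the probe sets. The shares were not matched for level. The median log2 change of the members was 0.44, against 0.05 for all genes. The 4 dexamethasone arrays lay above all 4 vehicle arrays for 18 members and below them for 3, and among all genes this held for 15.1% and 15.5%. In the cerebellum 2 members rose, 1 fell and 33 did not pass, and among all genes 4.80% passed, 2.84% higher and 1.97% lower. The median change of the members there was -0.05, against 0.01 for all genes.

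**Figure D1:**
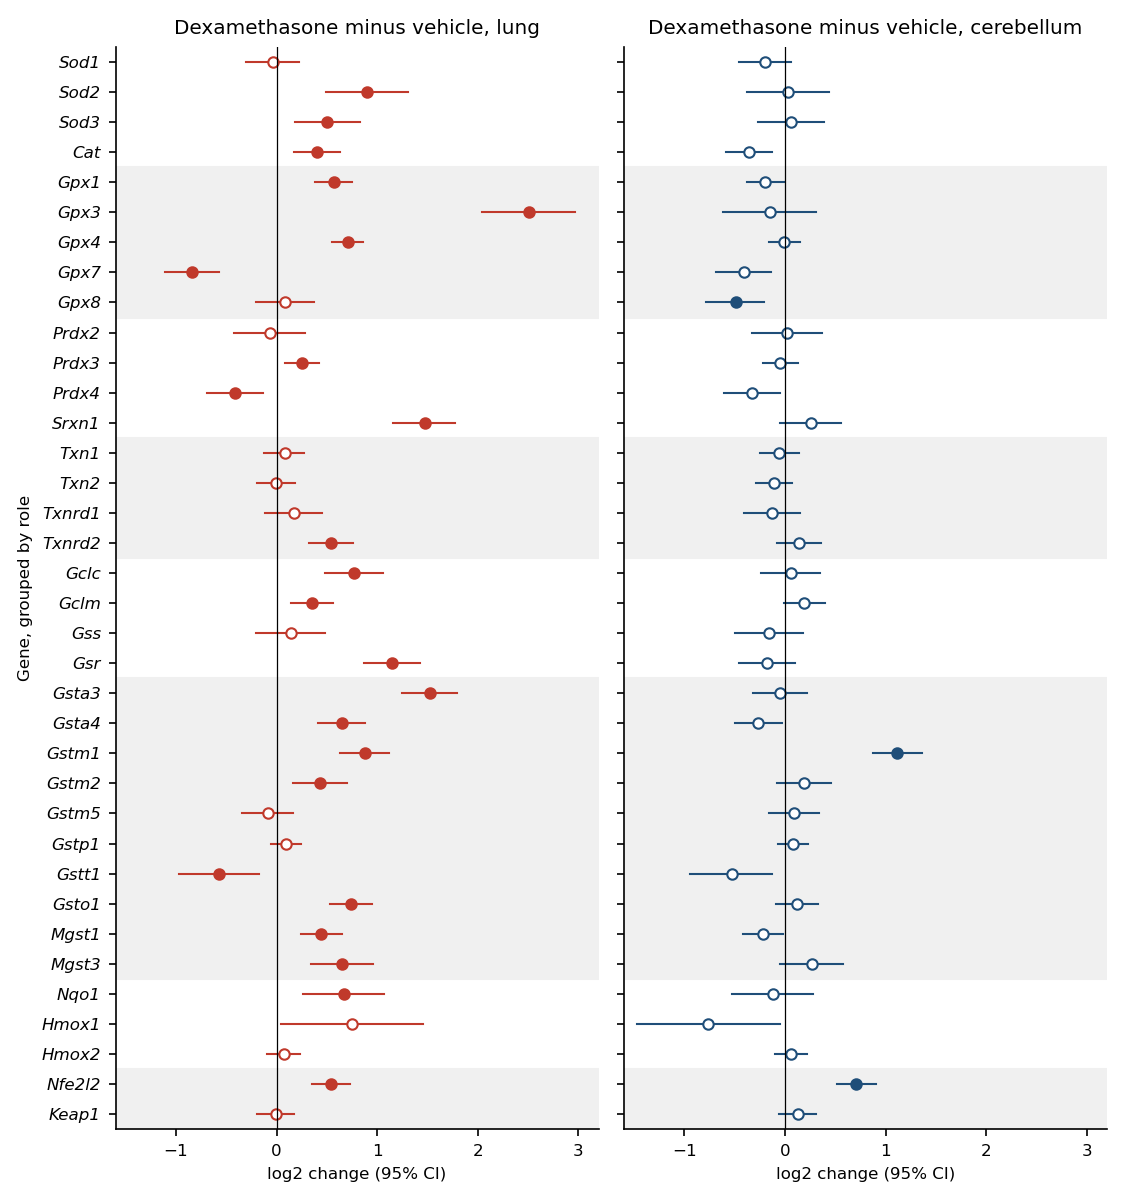
Log2 change (dexamethasone minus vehicle) of the 36 measured members in lung (left) and cerebellum (right), with 95% confidence intervals of the limma fit; filled points passed the test, and shaded bands separate the roles. In lung 21 points are filled to the right of 0 and 3 to the left, and in cerebellum 2 to the right and 1 to the left.

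Whole organs were measured, so fewer cells of a type and less RNA per cell cannot be told apart. Markers of other cells moved with the lung result. All 10 measured neutrophil markers rose, and their summed level was 15.29 to 15.84 in dexamethasone lungs and 13.47 to 14.07 in vehicle lungs. Of 10 macrophage markers 7 rose and 1 fell, with sums of 15.04 to 15.47 in dexamethasone lungs and 14.23 to 14.53 in vehicle lungs. Most of the rise in that sum came from Chil3 (mean 13.13 in dexamethasone and 8.46 in vehicle lungs) and Lyz2 (14.07 and 13.65). Of 7 alveolar type 2 markers 5 rose, with sums of 16.46 to 16.58 in dexamethasone lungs and 15.88 to 16.17 in vehicle lungs. Of 7 airway secretory markers 5 rose as well, with sums of 16.30 to 16.40 and 15.57 to 15.95. Of 5 measured erythroid markers 2 rose, with sums of 13.05 to 13.71 in dexamethasone lungs and 12.04 to 12.98 in vehicle lungs. Of 8 endothelial markers 4 fell, with sums of 13.66 to 13.95 in dexamethasone lungs and 14.06 to 14.24 in vehicle lungs. All 7 measured markers of dividing cells fell, with sums of 9.80 to 10.70 in dexamethasone lungs and 12.51 to 12.98 in vehicle lungs. The part of these cells in the members' changes was not tested.

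The promoters of 4 members on which the results turn are shown, Gpx3 and Gsta3 as the members with the greatest lung changes and Gstm1 and Nfe2l2 as the members that rose in both tissues. Each is the 250 bases before the annotated start on the gene's strand (RefSeq, GRCm38.p6). Capitals mark the core of the antioxidant response element (TGACNNNGC or its reverse complement) and the glucocorticoid half-site (AGAACA or TGTTCT). Gpx3 lies at chr11:54902604-54902853 on the plus strand, Gsta3 at chr1:21240335-21240584 on the plus strand, Gstm1 at chr3:108017974-108018223 on the minus strand, and Nfe2l2 at chr2:75704664-75704913 on the minus strand.
Gpx3: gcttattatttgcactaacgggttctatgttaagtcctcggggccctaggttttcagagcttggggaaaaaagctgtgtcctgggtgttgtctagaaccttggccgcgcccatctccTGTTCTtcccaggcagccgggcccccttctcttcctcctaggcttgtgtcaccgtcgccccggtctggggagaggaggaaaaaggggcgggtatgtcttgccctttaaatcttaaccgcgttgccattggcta
Gsta3: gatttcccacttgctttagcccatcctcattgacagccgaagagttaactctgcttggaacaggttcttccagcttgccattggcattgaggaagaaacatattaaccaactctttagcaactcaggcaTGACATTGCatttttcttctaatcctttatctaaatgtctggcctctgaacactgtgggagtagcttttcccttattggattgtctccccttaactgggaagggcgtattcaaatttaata
Gstm1: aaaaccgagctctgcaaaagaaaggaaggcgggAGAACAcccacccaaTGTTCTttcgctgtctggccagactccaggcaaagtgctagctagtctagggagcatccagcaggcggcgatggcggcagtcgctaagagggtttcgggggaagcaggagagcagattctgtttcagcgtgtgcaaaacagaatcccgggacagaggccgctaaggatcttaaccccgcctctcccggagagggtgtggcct
Nfe2l2: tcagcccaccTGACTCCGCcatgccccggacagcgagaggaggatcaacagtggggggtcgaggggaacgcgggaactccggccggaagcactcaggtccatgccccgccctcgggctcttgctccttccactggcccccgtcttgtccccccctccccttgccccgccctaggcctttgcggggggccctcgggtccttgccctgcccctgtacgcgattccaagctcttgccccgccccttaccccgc
In Gpx3 a half-site began at -133 from the start. Gsta3 had TGACATTGC at -121 and Nfe2l2 had TGACTCCGC at -240. The Gstm1 window held AGAACA at -217 and TGTTCT at -202. It belongs to 1 of the 2 annotated starts of Gstm1 in the table. That window was picked because it held the searched letters and the other did not, so its half-sites are not an unselected observation.

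Both strands of 32851 promoters were searched. The antioxidant core was in 7 of the 31 members with a promoter in the table, and in 11.5% of all 27025 genes there, a gene being counted if any of its promoters held it. Among the 17 members in the table that rose in lung 4 held it, namely Gsta3, Nfe2l2, Gclm and Mgst1, and Txnrd1, Sod1 and Gstm5, which were not called in either tissue, held it too. The half-site was in 8 of the 31 members and in 18.2% of all genes. It was in 6 of the 17 that rose, which were Mgst3, Cat, Gstm1, Gclm, Mgst1 and Gpx3. A full palindromic glucocorticoid element (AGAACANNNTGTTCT, whose ends are half-sites) was in 0 of the members and in 0.0111% of all genes. Any of these letters in a window describes its sequence only. Sod3, Gclc, Gsr, Gsta4 and Hmox1 had no entry.

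Of the 4 superoxide dismutase and catalase genes 3 rose in the lung and none was called in the cerebellum. Sod2, the mitochondrial superoxide dismutase, measured 11.28, 11.28, 11.62 and 12.50 in the dexamethasone lungs and 10.77, 10.86, 10.64 and 10.81 in the vehicle lungs. The groups did not overlap, and B46 was the highest. Its change was 0.90 ± 0.19 (SE), a 1.86-fold rise with a limma adjusted p of 0.00191, and it was 0.62 without B46. All 4 probe sets of Sod2 rose in lung.

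Sod3, the secreted superoxide dismutase, measured 8.31, 8.31, 8.31 and 7.63 in the dexamethasone lungs, against 7.43, 7.74, 7.53 and 7.83 in the vehicle lungs. The groups overlapped through B46 alone. The rise was 0.50 ± 0.15, or 1.42-fold (limma adjusted p = 0.0188). That call was lost without B28, B31, B40 or B12 in turn, with changes of 0.44 to 0.45 and an adjusted p of up to 0.0628, while leaving out B46 gave 0.67. It was lost in a fit on the lung arrays alone as well (adjusted p = 0.0508). Catalase (Cat), the peroxisomal enzyme that splits hydrogen peroxide, measured 11.42, 11.65, 11.80 and 11.59 in dexamethasone lungs and 11.38, 11.19, 11.11 and 11.18 in vehicle lungs. Every dexamethasone array lay above every vehicle array, and Cat rose by 0.40 ± 0.11, 1.32-fold (limma adjusted p = 0.00881). In the cerebellum Cat measured 10.17, 10.41, 10.40 and 10.34 with dexamethasone and 10.90, 10.53, 10.54 and 10.78 with vehicle. There all dexamethasone arrays lay below all vehicle arrays, at a change of -0.36 ± 0.11 that did not pass (limma adjusted p = 0.067). It did pass in 3 of the 6 alternative settings, namely without dim genes, after repeated quantile normalization and with a variance trend. All 3 used the same probe set. The other probe set of Cat (mean 10.88) changed by -0.16 there (limma adjusted p = 0.552). With its probe sets averaged, Cat was not called in cerebellum. The cytosolic dismutase Sod1 changed by -0.04 ± 0.12 in lung and by -0.20 ± 0.12 in cerebellum, and neither passed.

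Of the 5 glutathione peroxidases 3 rose in lung and 1 fell. Gpx3, the glutathione peroxidase secreted into plasma and airway lining fluid, had the greatest rise of all members. It measured 13.34, 13.04, 13.25 and 13.58 in the dexamethasone lungs and 10.66, 10.79, 10.85 and 10.88 in the vehicle lungs. The 2 groups were far apart relative to their spread. The rise of 2.51 ± 0.22 was 5.68-fold (limma adjusted p = 3.24e-07) and stayed between 2.41 and 2.59 when any array was left out. In cerebellum the values were 9.34, 8.83, 9.24 and 8.13 with dexamethasone and 9.21, 8.56, 9.30 and 9.10 with vehicle, which overlapped (-0.15 ± 0.22, limma adjusted p = 0.836). A further rise was that of Gpx4, which reduces lipid peroxides in membranes, at 12.96, 12.94, 13.05 and 12.88 in dexamethasone lungs and 12.21, 12.20, 12.32 and 12.27 in vehicle lungs. Its spread was small in both groups, and the change of 0.71 ± 0.07 was 1.63-fold (limma adjusted p = 2.23e-06). Gpx1, the abundant cytosolic peroxidase, measured 13.31, 13.32, 13.30 and 13.24 in dexamethasone lungs and 12.83, 12.52, 12.88 and 12.66 in vehicle lungs. Those values did not overlap, and the rise was 0.57 ± 0.09, 1.48-fold (limma adjusted p = 0.000105).

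Gpx7 and Gpx8, the glutathione peroxidases of the endoplasmic reticulum, did not rise. Gpx7 measured 9.26, 8.99, 9.19 and 8.51 in the dexamethasone lungs, against 9.80, 9.82, 9.90 and 9.80 in the vehicle lungs. All dexamethasone arrays were lower, B46 most of all, and the fall was -0.84 ± 0.13, 1.79-fold (limma adjusted p = 9.92e-05), and -0.68 without B46. In the cerebellum Gpx7 measured 8.04, 7.87, 8.13 and 7.96 with dexamethasone and 8.36, 8.55, 8.39 and 8.36 with vehicle. These groups did not overlap either, at a change of -0.41 ± 0.13 that did not pass (limma adjusted p = 0.0791). Gpx8 was the single member that fell in cerebellum, with 7.93, 8.24, 8.20 and 8.13 in dexamethasone cerebella and 8.49, 8.92, 8.46 and 8.61 in vehicle cerebella. The fall was -0.49 ± 0.13, 1.41-fold (limma adjusted p = 0.0444). It lost its call when any of 14 of the 16 arrays was left out, most without B79 (-0.39, adjusted p = 0.149), and in a fit on the cerebellar arrays alone (adjusted p = 0.0519). In lung Gpx8 changed by 0.08 ± 0.13 and did not pass.

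Of the 4 measured genes of peroxiredoxins and sulfiredoxin 2 rose in lung and 1 fell. Srxn1, sulfiredoxin, which restores peroxiredoxins that have been inactivated by peroxide, measured 8.29, 8.21, 8.42 and 8.86 in dexamethasone lungs and 7.02, 6.68, 7.25 and 6.98 in vehicle lungs. The lung groups were clearly apart, and the rise was 1.47 ± 0.14, 2.76-fold (limma adjusted p = 1.1e-06). In cerebellum it measured 8.85, 8.55, 8.54 and 8.37 with dexamethasone and 8.37, 8.32, 8.35 and 8.25 with vehicle. The lowest dexamethasone and the highest vehicle value were equal to 2 decimals, and the change of 0.26 ± 0.14 did not pass (limma adjusted p = 0.414). Among the peroxiredoxins themselves, the mitochondrial Prdx3 rose by 0.25 ± 0.08 in lung (1.19-fold, limma adjusted p = 0.0275) and Prdx4, of the endoplasmic reticulum, fell by -0.41 ± 0.13 (1.33-fold, limma adjusted p = 0.0265). Prdx3 lost its call without B28, B31, B12 or B19 (adjusted p of up to 0.0823), and Prdx4 without B46, B19 or B22 (up to 0.0906, and -0.29 without B46). Prdx3 was also lost in a fit on the lung arrays alone, and both calls were lost when Xist was added as a covariate. The cytosolic Prdx2 changed by -0.07 ± 0.16 in lung and by 0.02 ± 0.16 in cerebellum. Its dimmer probe set (mean 10.46) changed by -0.66 in cerebellum and passed when each probe set was tested separately (limma adjusted p = 0.0169). A dimmer probe set of Prdx4 (mean 8.49) did so too, at -0.59 (limma adjusted p = 0.0387), and Prdx4 was called lower in cerebellum with its probe sets averaged.

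The thioredoxins pass electrons to peroxiredoxins, and the reductases recharge them from NADPH. Only the mitochondrial reductase Txnrd2 was called among these 4 genes, with 8.46, 8.59, 8.34 and 8.18 in dexamethasone lungs and 7.69, 7.83, 7.97 and 7.92 in vehicle lungs. These did not overlap, the rise of 0.54 ± 0.10 was 1.45-fold (limma adjusted p = 0.000814), and all 4 probe sets of Txnrd2 rose. The cytosolic reductase Txnrd1 changed by 0.17 ± 0.13 in lung, and its highest dexamethasone value, 10.49, was that of B46. Txn1 and Txn2, the cytosolic and mitochondrial thioredoxins, changed by 0.08 ± 0.09 and -0.01 ± 0.09 in lung. In the cerebellum the changes of the 4 genes ran from -0.13 to 0.14, and none passed.

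Of the 4 measured genes of glutathione synthesis and reduction 3 rose in lung. Gsr, glutathione reductase, measured 9.90, 9.76, 10.08 and 10.57 in dexamethasone lungs and 8.85, 8.87, 8.95 and 9.03 in vehicle lungs. Every dexamethasone lung was above every vehicle lung, and the rise of 1.15 ± 0.13 was 2.22-fold (limma adjusted p = 6.01e-06). In the cerebellum Gsr measured 9.04, 9.11, 8.96 and 9.15 with dexamethasone and 9.22, 9.40, 9.20 and 9.16 with vehicle, lower in all 4 arrays but by -0.18 ± 0.13 only (limma adjusted p = 0.59). Its dimmer probe set (mean 8.01) went the other way there, at 0.17, and did not pass (limma adjusted p = 0.708). Gclc, the catalytic subunit of glutamate-cysteine ligase, which controls the rate of glutathione synthesis, measured 11.48, 11.63, 11.74 and 12.23 in dexamethasone lungs and 11.07, 11.04, 10.73 and 11.16 in vehicle lungs. B46 was again the highest, the groups did not overlap, and the rise was 0.77 ± 0.14, 1.71-fold (limma adjusted p = 0.000425), and 0.62 without B46. Gclm, the modifier subunit of the same enzyme, rose by 0.35 ± 0.10 (1.27-fold, limma adjusted p = 0.0122), a call it did not keep in the average over its 2 probe sets. Gss, glutathione synthetase, changed by 0.14 ± 0.16 in lung and did not pass, with vehicle lungs that ranged from 7.55 to 8.24.

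**Figure D2:**
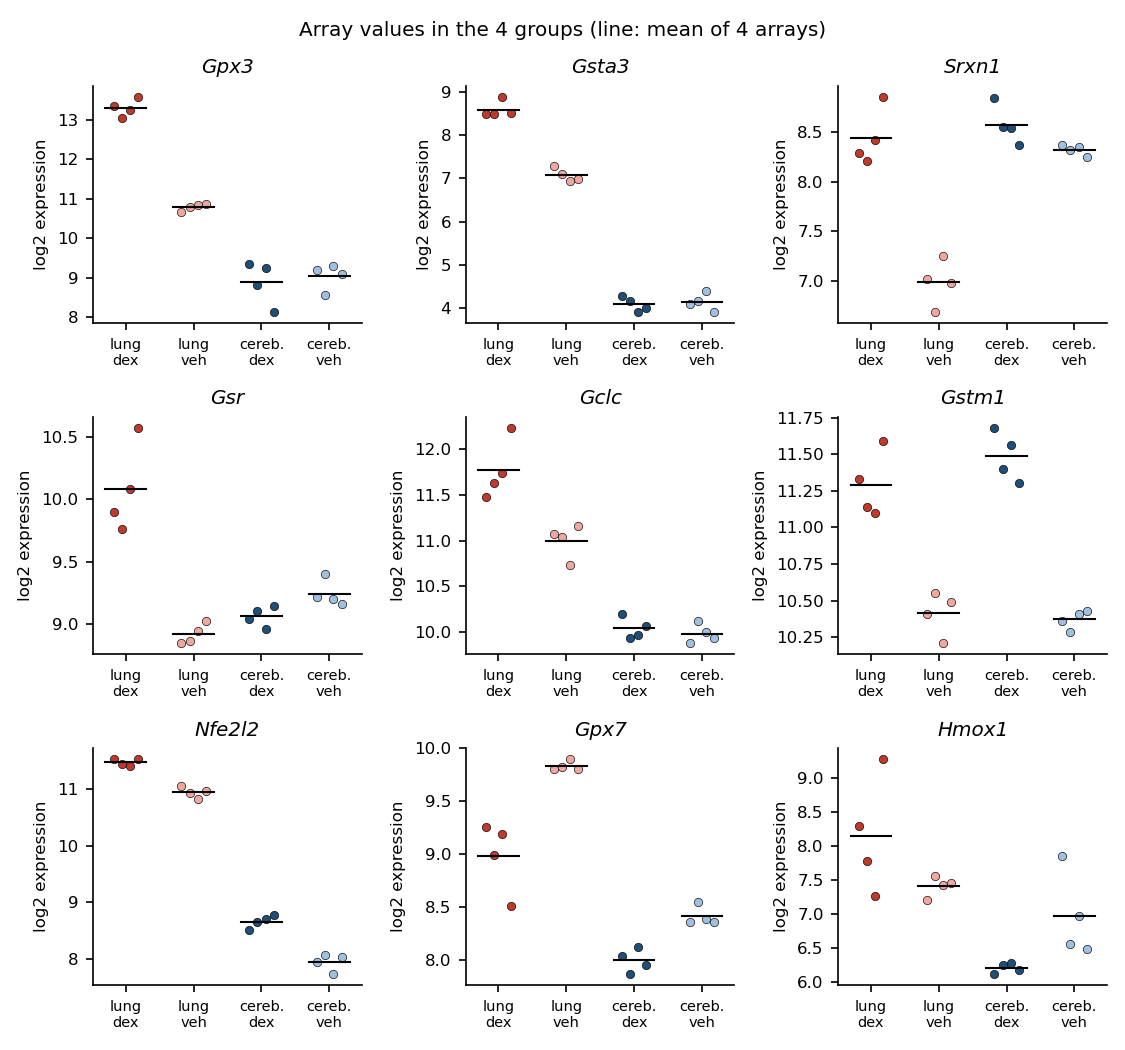
Log2 expression on each array of 9 members in dexamethasone lung, vehicle lung, dexamethasone cerebellum and vehicle cerebellum, with the mean of 4 arrays as a line; each panel has its own axis. Gpx3, Gsta3 and Gclc are apart in lung and overlap in cerebellum. Srxn1 and Gsr are apart in lung, and in cerebellum their groups touch or nearly touch. Gstm1 and Nfe2l2 are clearly apart in both.

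Of 10 glutathione S-transferases 7 rose in lung, 1 fell and 2 did not pass. Gsta3, an alpha class enzyme, measured 8.49, 8.48, 8.89 and 8.52 in dexamethasone lungs and 7.28, 7.09, 6.94 and 6.99 in vehicle lungs. B40 stood above the other dexamethasone arrays, all of them lay above the vehicle arrays, and the rise was 1.52 ± 0.13, 2.87-fold (limma adjusted p = 1.95e-07). In the cerebellum Gsta3 lay between 3.90 and 4.28 with dexamethasone and between 3.90 and 4.39 with vehicle, close to the bottom of the range of the deposited values (3.153 to 14.834). Gsta4, which acts on 4-hydroxynonenal, a product of lipid peroxidation, measured 10.55, 10.46, 10.58 and 10.64 in dexamethasone lungs and 9.94, 10.04, 9.63 and 10.04 in vehicle lungs. No values overlapped, and the rise was 0.65 ± 0.11, 1.57-fold (limma adjusted p = 0.00028). Gsto1, the omega class enzyme, measured 11.12, 11.20, 11.32 and 11.14 in dexamethasone lungs and 10.62, 10.40, 10.23 and 10.58 in vehicle lungs, again without overlap (0.74 ± 0.10, 1.67-fold, limma adjusted p = 2.77e-05).

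The mu class genes differed among themselves. Gstm1 measured 11.33, 11.14, 11.10 and 11.59 in dexamethasone lungs and 10.41, 10.55, 10.21 and 10.49 in vehicle lungs. In the cerebellum it measured 11.68, 11.40, 11.56 and 11.30 with dexamethasone and 10.36, 10.29, 10.41 and 10.43 with vehicle. Both tissues were apart without overlap, at 0.88 ± 0.12 in lung (1.83-fold, limma adjusted p = 2.41e-05) and 1.11 ± 0.12 in cerebellum (2.16-fold, limma adjusted p = 6.19e-05). This probe set is of a kind that can pick up related transcripts, and Gstm genes are close in sequence. Of its 4 probe sets 3 were called higher in each tissue. Gstm2 measured 10.57, 10.14, 10.32 and 10.13 in dexamethasone lungs, against 9.88, 9.85, 9.79 and 9.91 in vehicle lungs. The groups did not overlap (0.43 ± 0.13, 1.35-fold, limma adjusted p = 0.0155), and without B28 the change was 0.34 and did not pass (adjusted p = 0.0573). Gstm5 changed by -0.09 ± 0.12 in lung and 0.09 ± 0.12 in cerebellum, and the pi class gene Gstp1 by 0.09 ± 0.07 and 0.08 ± 0.07, all short of the threshold.

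Mgst1 and Mgst3 encode membrane-bound enzymes with transferase and peroxidase activity. Mgst1 measured 13.19, 13.17, 13.23 and 13.18 in dexamethasone lungs and 12.86, 12.75, 12.69 and 12.69 in vehicle lungs. It had the lowest spread of any member in dexamethasone lungs (SD 0.026, n = 4), did not overlap, and rose by 0.44 ± 0.10, 1.36-fold (limma adjusted p = 0.00192). Mgst3 measured 9.55, 9.36, 9.60 and 8.85 in dexamethasone lungs, against 8.61, 8.59, 8.87 and 8.71 in vehicle lungs. It overlapped through B46, and rose by 0.65 ± 0.15, 1.57-fold (limma adjusted p = 0.00285), or by 0.81 without B46. The theta class gene Gstt1 was the transferase that fell, with 10.27, 10.15, 10.07 and 9.22 in dexamethasone lungs and 10.35, 10.64, 10.38 and 10.63 in vehicle lungs. B46 was far below the others, and the change of -0.57 ± 0.19 (1.48-fold, limma adjusted p = 0.0307) became -0.33 without it and lost its call (adjusted p = 0.0851). The call was also lost without B14 (adjusted p = 0.0808) or without B22 (adjusted p = 0.0768). Separately, it was lost in a fit on the lung arrays alone (adjusted p = 0.0721) and with Xist as a covariate (adjusted p = 0.0545). In cerebellum Gstt1 measured 8.17, 7.84, 7.76 and 7.69 with dexamethasone and 8.26, 8.74, 8.32 and 8.29 with vehicle. These did not overlap, at -0.53 ± 0.19, and did not pass (limma adjusted p = 0.133).

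Nqo1, a quinone reductase and a standard readout of Nrf2 activity, measured 6.94, 7.06, 6.94 and 7.02 in dexamethasone lungs and 6.03, 5.96, 7.02 and 6.28 in vehicle lungs. The vehicle array B19 lay among the dexamethasone arrays, and the rise was 0.67 ± 0.19, 1.59-fold (limma adjusted p = 0.0129). Without B14 the change was 0.55 and did not pass (adjusted p = 0.0505), and without B19 it was 0.90. In the cerebellum Nqo1 measured 7.28, 6.98, 7.10 and 6.90 with dexamethasone and 7.06, 7.38, 6.84 and 7.47 with vehicle, a change of -0.12 ± 0.19 (limma adjusted p = 0.854).

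Hmox1, the inducible haem oxygenase, varied widely between arrays. It measured 8.30, 7.78, 7.27 and 9.29 in dexamethasone lungs and 7.21, 7.56, 7.43 and 7.46 in vehicle lungs. B46 was the highest, B40 lay among the vehicle arrays, and the change of 0.75 ± 0.33 did not pass (limma adjusted p = 0.104). It was 0.37 without B46 (adjusted p = 0.348) and 1.04 without B40, where it passed (adjusted p = 0.0201). B46 also had the highest summed macrophage markers, at 15.47, and the part of those cells in Hmox1 was not tested. In the cerebellum Hmox1 measured 6.12, 6.26, 6.29 and 6.18 with dexamethasone and 7.86, 6.56, 6.98 and 6.49 with vehicle. All dexamethasone arrays were lower, the vehicle arrays were spread out with B78 the highest, and the change of -0.76 ± 0.33 did not pass (limma adjusted p = 0.25), and was -0.46 without B78. Hmox2, the constitutive form, changed by 0.07 ± 0.08 in lung and 0.06 ± 0.08 in cerebellum.

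Nfe2l2, the gene of Nrf2, rose in both tissues. It measured 11.54, 11.44, 11.42 and 11.54 in dexamethasone lungs and 11.05, 10.94, 10.82 and 10.97 in vehicle lungs. In the cerebellum it measured 8.52, 8.66, 8.70 and 8.77 with dexamethasone and 7.95, 8.07, 7.73 and 8.04 with vehicle. Neither tissue had overlapping arrays, and the rises were 0.54 ± 0.09 in lung (1.45-fold, limma adjusted p = 0.000236) and 0.71 ± 0.09 in cerebellum (1.64-fold, limma adjusted p = 0.000332). Nfe2l2 has a further, dimmer probe set, with a mean of 5.45 over the arrays, which changed by 2.03 in lung (limma adjusted p = 0.000164) and by -0.83 in cerebellum (limma adjusted p = 0.194). With the 2 probe sets averaged, the cerebellar change was -0.06 (limma adjusted p = 0.953), so the cerebellar rise rests on the brighter probe set. Keap1 measured 9.43, 9.50, 9.48 and 9.37 in dexamethasone lungs and 9.38, 9.38, 9.56 and 9.51 in vehicle lungs, which overlapped (-0.01 ± 0.09, limma adjusted p = 0.96). In the cerebellum it measured 9.15, 9.02, 9.08 and 9.21 with dexamethasone and 8.87, 9.19, 8.93 and 8.97 with vehicle, also with overlap (0.13 ± 0.09, limma adjusted p = 0.535). The 95% intervals allow a Keap1 change of -0.19 to 0.17 in lung and of -0.06 to 0.31 in cerebellum.

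Gstm1 and Nfe2l2 were thus the members called higher in both tissues, which among all genes held for 91, or 0.500%. For Gstm1 the lung change minus the cerebellar change was -0.24 ± 0.16 (limma adjusted p = 0.353), and for Nfe2l2 it was -0.17 ± 0.13 (limma adjusted p = 0.395). The 95% intervals of these differences ran from -0.58 to 0.11 and from -0.44 to 0.10. With the probe sets of Nfe2l2 averaged, the difference was 1.34 and passed (limma adjusted p = 0.00153).

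The response differed between the tissues for 15 of the 36 members, tested as the lung change minus the cerebellar change, and all 15 had the more positive change in lung. Among all genes 21.3% passed this test, 9.85% with the more positive change in lung and 11.5% with the more negative. The median difference was 0.34 for the members and 0.03 for all genes. It was 2.66 ± 0.31 for Gpx3 (limma adjusted p = 2.12e-05), 1.57 ± 0.18 for Gsta3 (limma adjusted p = 1.8e-05), 1.33 ± 0.19 for Gsr (limma adjusted p = 0.000118) and 1.21 ± 0.20 for Srxn1 (limma adjusted p = 0.000489). For Gsta3, close to the bottom of the deposited range in both cerebellar groups, a fall there could hardly have been measured. The other differences that held whichever array was left out were those of Gsta4 at 0.92, Gpx1 at 0.77, Cat at 0.76, Gpx4 and Gclc at 0.71 each, Mgst1 at 0.66 and Gsto1 at 0.61, with limma adjusted p values between 0.000163 and 0.0155. For Cat, Gpx1 and Gsr the arrays of the 2 treatments did not overlap in either tissue, higher with dexamethasone in lung and lower in cerebellum. None of these cerebellar falls passed the test. On their other probe sets Gsr changed by 0.17 and Cat by -0.16 in cerebellum (limma adjusted p = 0.708 and 0.552). Among all genes 15.1% lay above without overlap in lung and 5.44% below in cerebellum, and the share with both was not counted. Gpx1 measured 11.02, 10.96, 10.95 and 10.94 in dexamethasone cerebella and 11.19, 11.30, 11.11 and 11.06 in vehicle cerebella, a change of -0.20 ± 0.09 that did not pass (limma adjusted p = 0.254). The differences of Hmox1 (1.51 ± 0.47, limma adjusted p = 0.0316), Sod2 (0.87 ± 0.27, limma adjusted p = 0.0326), Nqo1 (0.79 ± 0.27, limma adjusted p = 0.0463) and Gpx8 (0.58 ± 0.19, limma adjusted p = 0.04) passed narrowly. Each was lost without some arrays, 6 of the 16 for Hmox1 and Sod2, 13 for Nqo1 and 12 for Gpx8.

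**Figure D3:**
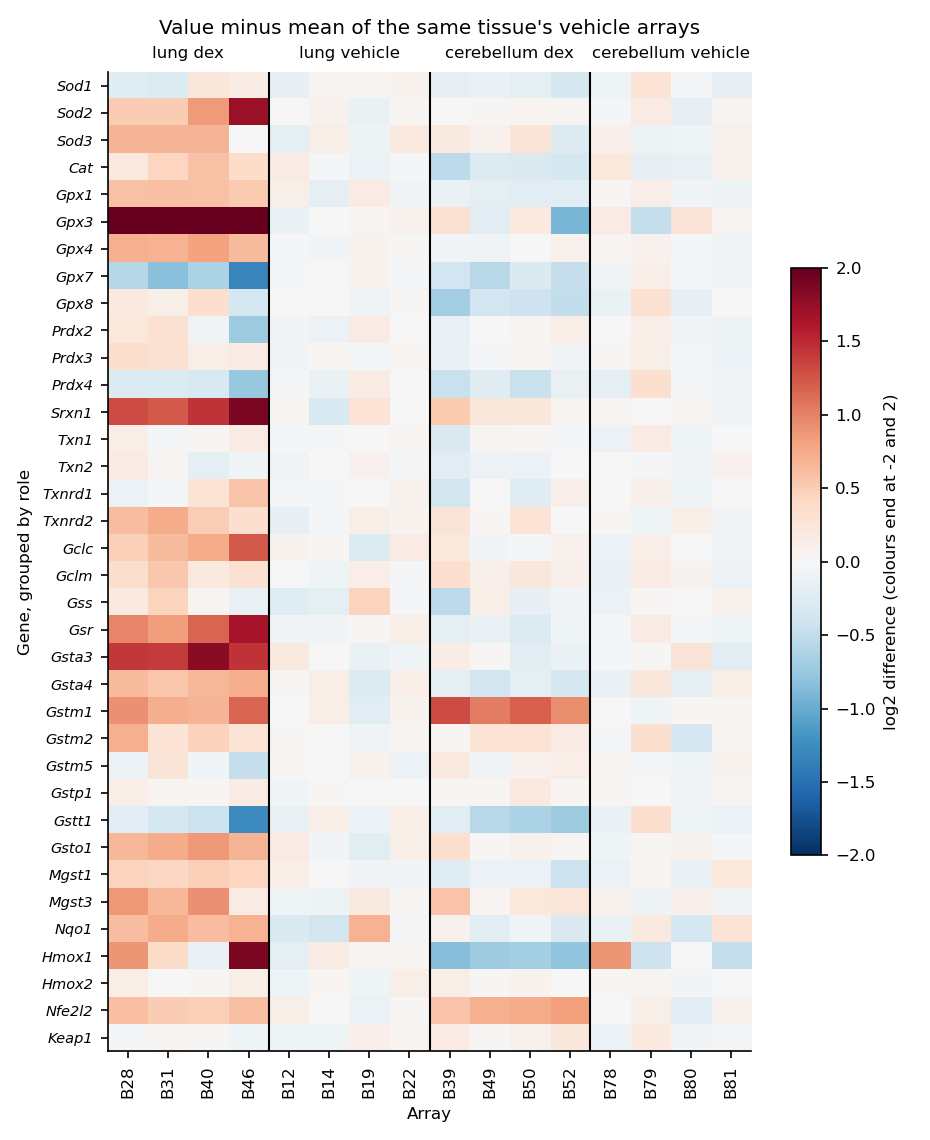
Log2 value of each measured member on each array minus the mean of the vehicle arrays of the same tissue, for dexamethasone lung, vehicle lung, dexamethasone cerebellum and vehicle cerebellum; colours end at -2 and 2, and Gpx3 goes past that range in the dexamethasone lungs. B46 shows the most extreme colours of the dexamethasone lungs for Sod2, Gpx7, Gstt1 and Hmox1.

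In the cerebellum the arrays of the 2 treatments did not overlap for 10 members, with dexamethasone above for 3 (Srxn1, Gstm1 and Nfe2l2) and below for 7 (Cat, Gpx1, Gpx7, Gpx8, Gsr, Gstt1 and Hmox1). Among all genes this held for 7.13% above and 5.44% below. Of those 10 members 3 passed the test. Endothelial markers moved in this tissue, 6 of 8 lower, with sums of 10.67 to 10.83 in dexamethasone cerebella and 11.39 to 11.72 in vehicle cerebella. Of 10 neutrophil markers 2 fell, with sums of 8.76 to 9.70 in dexamethasone cerebella and 9.50 to 10.34 in vehicle cerebella. Of 10 macrophage markers 2 fell as well, with sums of 11.19 to 11.69 and 11.67 to 11.88. Of 8 astrocyte markers 1 rose, and the sums overlapped at 14.76 to 15.11 with dexamethasone and 14.68 to 14.98 with vehicle. The part of these cells in the cerebellar values was not tested.

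The spread of the members also differed by group. Their median SD in dexamethasone lungs was 0.214, against 0.188 for all genes, and in vehicle lungs it was 0.104, against 0.148 for all genes. It was 0.121 in dexamethasone cerebella, against 0.155 for all genes, and 0.108 in vehicle cerebella, against 0.149. Hmox1 was the most variable member in dexamethasone lungs (SD 0.86, n = 4) and in vehicle cerebella (SD 0.631, n = 4). Nqo1 was the most variable in vehicle lungs (SD 0.485, n = 4) and Gpx3 in dexamethasone cerebella (SD 0.551, n = 4).

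Without dexamethasone the 2 organs already differed in these genes. The 3′ minus 5′ difference of the Gapdh control probe sets was 0.84 to 1.044 in vehicle lungs and 0.044 to 0.518 in vehicle cerebella. These ranges did not overlap, so organ and this measure of RNA quality cannot be told apart. Those of the actin control probe sets overlapped. Comparing vehicle lung with vehicle cerebellum, 20 members were higher in lung, 8 were lower and 8 did not pass, where 57.7% of all genes passed, 28% higher and 29.7% lower. The vehicle lung arrays lay above all vehicle cerebellum arrays for 20 members and below them for 7. Arrays of this comparison were apart for 56.4% of all genes, 27.4% above and 29.0% below. The median difference was 0.43 for the members and 0.00 for all genes. Gstm2 was 4.25 ± 0.13 higher in lung (19-fold, limma adjusted p = 2.21e-14), Nfe2l2 2.99 ± 0.09 (7.96-fold, limma adjusted p = 2.47e-14) and Gsta3 2.94 ± 0.13. The cerebellar values of Gsta3 were close to the bottom of the deposited range and have no detection call, so the size of its difference is not exact. Gstm2 measured 5.28 to 5.93 in vehicle cerebella, within or below the range of array medians (5.871 to 6.001). The size of its difference is therefore not exact either. Gstt1 and Mgst1 followed at 2.10 ± 0.19 and 2.04 ± 0.10. The secreted enzymes Gpx3 and Sod3 were 1.75 ± 0.22 and 1.60 ± 0.15 higher in lung. Lower in lung were Gstm5, by -1.93 ± 0.12 (3.82-fold, limma adjusted p = 2.28e-10), Mgst3 by -1.48 ± 0.15, Srxn1 by -1.34 ± 0.14, Nqo1 by -0.86 ± 0.19 and Txnrd1 by -0.69 ± 0.13. With dexamethasone, Srxn1 measured 8.21 to 8.86 in lung and 8.37 to 8.85 in cerebellum, ranges that overlapped. The difference between the organs with dexamethasone was not tested.

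**Figure D4:**
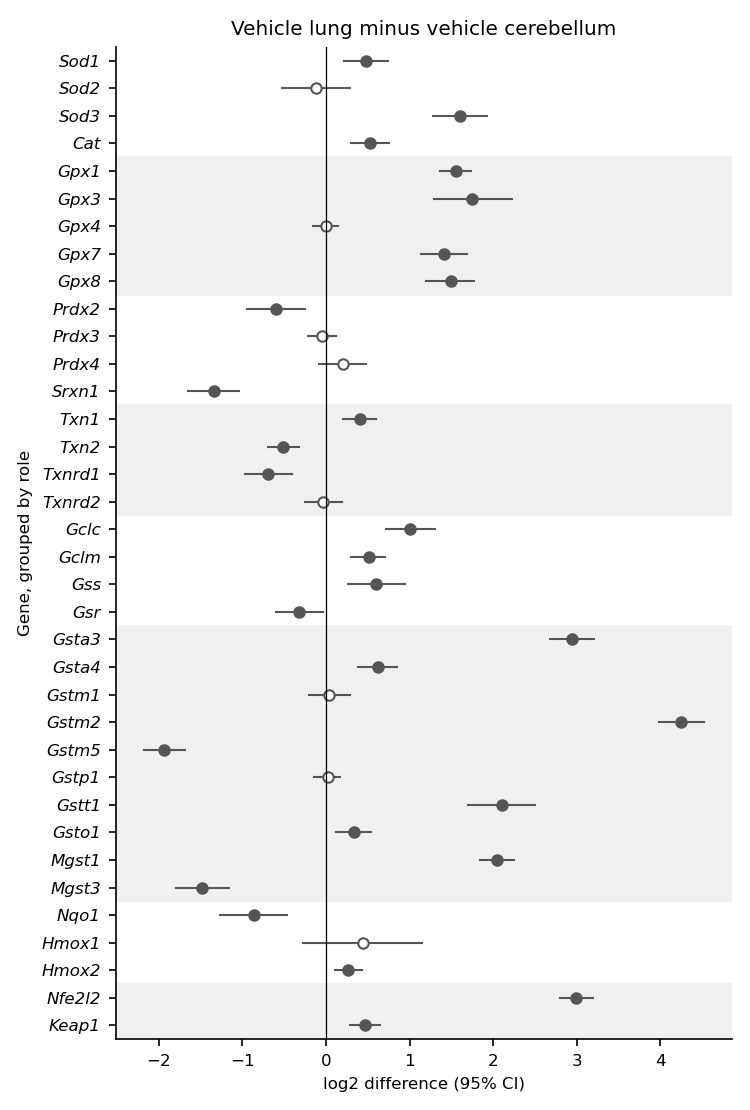
Log2 difference of vehicle lung minus vehicle cerebellum for the 36 measured members, with 95% confidence intervals; filled points passed the test, and shaded bands separate the roles. 20 filled points lie to the right of 0 and 8 to the left, with Gstm2 at 4.25 and Gstm5 at -1.93.

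Genes around the members were read from 8 further lists, also chosen with earlier results known, and 104 of their 109 genes were measured. In lung 46 of them rose and 7 fell, 44.2% and 6.73%, with a median change of 0.30, against 15.7% and 15.5% of all genes. In cerebellum 3 rose and 3 fell, 2.88% each, which is close to the 2.84% and 1.97% of all genes. Among genes of glutathione supply, breakdown and glutaredoxins 10 of 16 rose in lung and none fell. They included Dpep1, a dipeptidase that acts on glutathione breakdown products (1.51 ± 0.13, 2.85-fold, limma adjusted p = 3.01e-07), Hagh, a glyoxalase that releases glutathione (1.10 ± 0.13, limma adjusted p = 5.17e-06), and the glutaredoxin Glrx (1.0 ± 0.13, limma adjusted p = 2.75e-05). In cerebellum the only called gene of that list was Chac1, an enzyme that degrades glutathione, which measured 8.48, 9.73, 9.44 and 9.78 with dexamethasone and 7.57, 7.57, 7.90 and 7.89 with vehicle. It rose by 1.62 ± 0.24, 3.08-fold (limma adjusted p = 0.000961).

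The NADPH supply list was mixed, with 2 of 10 higher and 1 lower in lung. Pgd and Taldo1, enzymes of the pentose phosphate pathway, rose by 0.64 ± 0.09 and 0.56 ± 0.09 (limma adjusted p = 6.38e-05 and 0.000108). Mthfd2, a mitochondrial folate enzyme, fell in lung by -0.44 ± 0.14 (limma adjusted p = 0.0269) and rose in cerebellum by 1.08 ± 0.14 (limma adjusted p = 0.000504). Of the partners and regulators of Nrf2 4 of 10 rose in lung and 1 fell. Maff, a small Maf protein that pairs with Nrf2, rose by 1.94 ± 0.23, 3.85-fold (limma adjusted p = 6.82e-06), and Sqstm1, which binds Keap1, by 0.81 ± 0.12 (limma adjusted p = 8.5e-05). Bach2, a repressor related to Bach1, fell by -0.73 ± 0.09 (limma adjusted p = 1.09e-05). None of these 10 was called in the cerebellum.

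In lung 8 of 12 genes of NADPH oxidases and other oxidant sources rose and none fell, and in cerebellum none rose and 1 fell. Xdh, xanthine dehydrogenase, measured 9.78, 9.27, 9.91 and 11.02 in dexamethasone lungs and 7.84, 7.34, 7.79 and 7.84 in vehicle lungs, a rise of 2.29 ± 0.26, 4.90-fold (limma adjusted p = 5.21e-06). Ncf4 and Ncf1, subunits of the phagocyte NADPH oxidase, rose by 1.67 ± 0.13 and 1.59 ± 0.17 (limma adjusted p = 1.43e-07 and 2.43e-06). Phagocytes use that oxidase, and most of the neutrophil and macrophage markers given above rose too. The part of those cells in the changes of Ncf4 and Ncf1 was not tested. In cerebellum Cyba, another subunit, fell by -0.58 ± 0.16 (limma adjusted p = 0.0422). Iron and haem genes had 5 of 9 higher in lung, among them the biliverdin reductase Blvrb (1.25 ± 0.22, limma adjusted p = 0.000291), ferritin heavy chain Fth1 (0.84 ± 0.11, limma adjusted p = 3.36e-05) and ceruloplasmin, Cp (0.82 ± 0.19, limma adjusted p = 0.00278). In the cerebellum the iron exporter Slc40a1 fell by -1.24 ± 0.13 (limma adjusted p = 9.68e-05) and the transferrin receptor Tfrc rose by 0.66 ± 0.11 (limma adjusted p = 0.00244).

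Of 17 other glutathione transferase and peroxidase genes 9 rose in lung and none fell, led by Gstk1 (1.0 ± 0.12, limma adjusted p = 7.92e-06), Gstz1 (0.84 ± 0.11, limma adjusted p = 1.71e-05) and Gpx2 (1.38 ± 0.22, limma adjusted p = 0.000166). Of 16 thioredoxin-related genes 4 rose and 1 fell. Msrb1 and Msra, which repair oxidised methionine, rose by 0.77 ± 0.12 and 0.55 ± 0.14 (limma adjusted p = 0.000131 and 0.00639), and nucleoredoxin, Nxn, fell by -0.82 ± 0.14 (limma adjusted p = 0.000264). Txnip, which inhibits thioredoxin, fell in cerebellum by -1.67 ± 0.26 (3.19-fold, limma adjusted p = 0.00137). Its values there were 10.32, 8.67, 9.22 and 8.92 with dexamethasone and 11.13, 10.80, 10.92 and 10.97 with vehicle, with B39 the nearest to the vehicle arrays. Selenoproteins and genes of selenocysteine synthesis split evenly in lung, 4 of 14 higher and 4 lower. These are 28.6% each, against the 15.7% and 15.5% of all genes. Selenbp1, a selenium-binding protein, rose by 1.48 ± 0.20 (limma adjusted p = 2.3e-05). Selenok, a selenoprotein of the endoplasmic reticulum, rose by 0.46 ± 0.09 (limma adjusted p = 0.00072), and Sephs1 fell by -0.44 ± 0.11 (limma adjusted p = 0.00598).

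**Figure D5:**
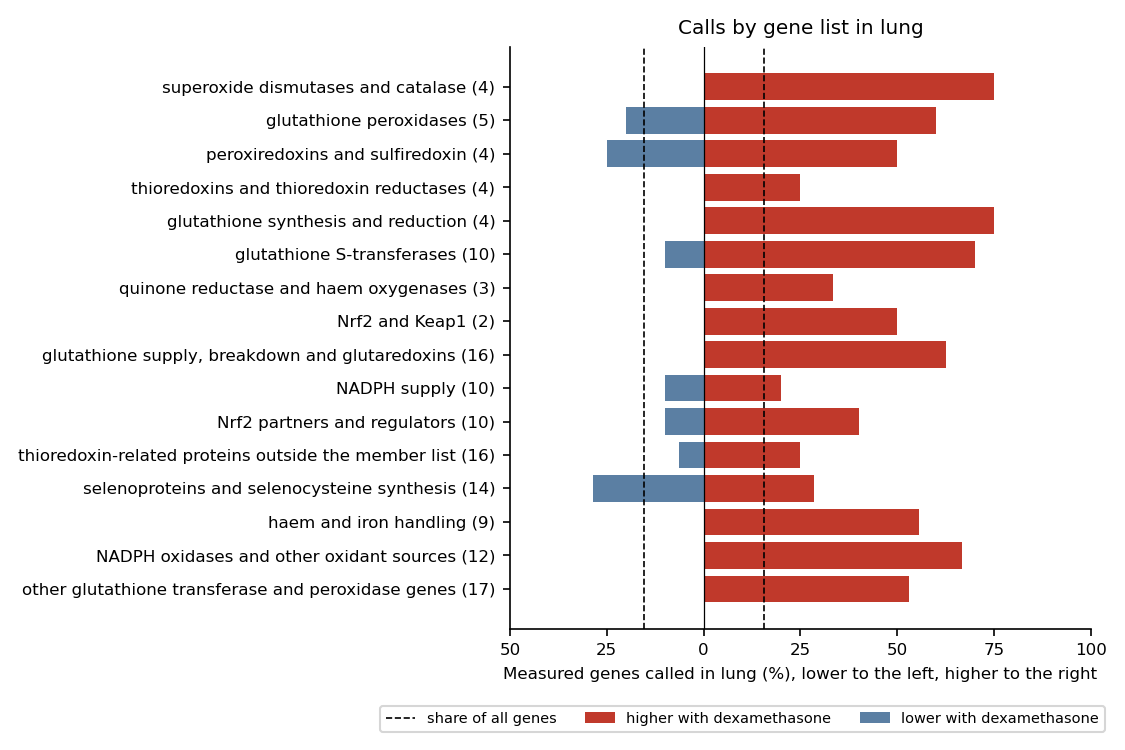
Percentage of measured genes called in lung for the 8 roles of the members and the 8 further lists (number measured in brackets), higher with dexamethasone to the right and lower to the left; dashed lines are the shares of all genes, 15.7% and 15.5%. The glutathione S-transferases reach 70.0% higher, and the selenoprotein list has 28.6% on each side.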

How the data were processed

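The values are log2 expression values that the authors deposited, 1 per probe set and array. The submitters' processing notes name RMA (background correction, quantile normalization and probe set summary), without a version or settings. Array medians lay between 5.871 and 6.001. RMA keeps no detection call, and the number of arrays limits the precision.

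Of 45101 probe sets, 64 controls, 932 with several genes and 9160 with none were left out. The other 34945 gave 18193 genes, 9010 of them with several probe sets, and 18032 symbols were matched to RefSeq. No filter on low values was applied.

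limma 3.58.1 in R 4.3.3 fitted 4 group means over 16 arrays (12 residual degrees of freedom). Fold changes are dexamethasone over vehicle, and lung over cerebellum. A gene is called at an adjusted p (Benjamini-Hochberg over all genes) under 0.05. The fit was also run on simulated data with independent noise for each gene and array. Deviations shared by many genes of an array were not simulated, so this is no check on the calls here.

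Members called in a dexamethasone comparison (at most the 20 with the greatest change in each) or in the difference between tissues are given in full. Nfe2l2, Keap1, Nqo1 and Hmox1 are always given, and so are the 3 smallest adjusted p values of each further list. The members and lists were chosen with earlier results of these data known. The design text calls the replicates biological. Litters are not given, so p-values measure only the spread between these samples.

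Alternatives were averaged probe sets, dim genes left out, quantile normalization applied again, a fit on only the arrays compared, a variance trend, the level of Xist as a covariate (sex is not labelled), and each array left out.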

Additional observations from a re-analysis of the deposited data

Results flagged for a closer look

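In 7 of 144 groups of 4 arrays, the most distant array of a member was set apart from the others by a share of the group's range above Dixon's critical value. Chance alone flags about 1 in 20 such groups. The share of the range was 0.996 for Sod3 and 0.941 for Prdx4, both low on B46 in dexamethasone lung. It was 0.921 for Gsta3, high on B40 in dexamethasone lung, and 0.90 for Sod1, low on B12 in vehicle lung (11.94, with the others between 12.15 and 12.17). In dexamethasone cerebellum it was 0.95 for Gstp1, high on B50 (12.28, with the others at 12.13). In vehicle cerebellum it was 0.857 for Gpx7 and 0.873 for Gstt1, both high on B79.

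For 15 members the effect of dexamethasone differed between the organs by a test of the difference itself (limma, adjusted over all genes). The lung change minus the cerebellar change was 2.66 for Gpx3, 1.57 for Gsta3, 1.51 for Hmox1, 1.33 for Gsr and 1.21 for Srxn1. It was 0.92 for Gsta4, 0.87 for Sod2, 0.79 for Nqo1, 0.77 for Gpx1 and 0.76 for Cat. The remaining differences were 0.71 for Gpx4, 0.71 for Gclc, 0.66 for Mgst1, 0.61 for Gsto1 and 0.58 for Gpx8.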

How the results depend on the processing

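Of 24 lung calls 18 held whichever array was left out, as did 2 of 3 cerebellar calls and 11 of 15 calls of the difference. Outside leave-one-out, the named members' changes kept direction and side of the threshold in 243 cases and not in 8. With probe sets averaged, the cerebellum had 1 member called higher and 2 lower, and Nfe2l2 was at -0.06 there, which follows from its dimmer probe set. The members called lower in cerebellum numbered 2 without dim genes, 3 after repeated quantile normalization, 2 with a variance trend and 0 with Xist as a covariate, and those called lower in lung numbered 1 with Xist. The cause was not tested. Gsta3 is not tested once dim genes are left out, which leaves 35 members.

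Leaving out each array in turn gave 2357 to 2977 genes higher and 2391 to 2900 lower in lung, with 18 to 21 members higher and 1 to 3 lower (1 without B46 or B22). In cerebellum it gave 305 to 701 genes higher (315 without B50 and 305 without B80) and 201 to 528 lower (217 without B49, 213 without B50 and 201 without B79), with 2 members higher each time and 0 to 3 lower. For the difference it gave 1480 to 1856 genes higher and 1763 to 2092 lower, with 11 to 17 members higher and 0 lower. Between vehicle tissues it gave 4791 to 5265 genes higher and 5104 to 5566 lower, with 20 members higher and 7 to 8 lower. No paired analysis was possible because the groups share no replicate numbers.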
